A study of Mus musculus with 2 samples.

Results

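Among cultured stromal cells of mouse inguinal white adipose tissue (iWAT), a set of 1313 mesenchymal cells had a summed count of 3 or more transcripts of Gdf10, Meox2 and Tnfsf8. They are called Gdf10/Meox2/Tnfsf8 cells after this sum, and all 3 transcripts were detected in a minority of them. They were chosen from the measured counts in the iWAT library. Cells entered with a number of detected genes above 200 and below 7500, and with mitochondrial transcripts below 30%. A cell was called mesenchymal with at least 1 transcript of Pdgfra, the platelet-derived growth factor receptor of fibroblasts, and with 0 transcripts of Epcam, Ptprc, Pecam1 and Sox10, which mark epithelial, immune, endothelial and Schwann cells. It was a member if Gdf10, Meox2 and Tnfsf8 together gave 3 or more transcripts and Dpp4 gave fewer than 3. Members were 8.64% of the 15196 mesenchymal cells (exact binomial 95% interval 8.20 to 9.10) and 4.41% of the 29744 filtered cells of the library. They were compared with the 12143 mesenchymal cells that had 0 transcripts of the 3 genes, called marker-negative cells.

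The study asked how fibroblast growth factors (FGFs) act on preadipocytes of white and brown fat. Stromal vascular cells came from pooled tissue of wild-type C57BL/6N mice, 8 to 12 weeks old per the labels, and were grown in high-glucose medium to near confluence. Per the labels, each of 2 depots, iWAT and interscapular brown adipose tissue (iBAT), gave an untreated culture and cultures kept for 48 h with 5.5 nM of FGF1, of FGF2 or of FGF8. The methods of the study differ on this, naming vehicle, FGF1 and FGF2 and giving other ages for the mice. The 4 treatments of a depot were tagged, pooled at 10000 cells each and sequenced as 1 whole-transcriptome library on the BD Rhapsody system. In this system each captured RNA molecule is counted through a unique molecular identifier (UMI). The files used here tie no cell to a treatment, so each library is 1 sample. Treated and untreated cells cannot be told apart, cells are not replicates, and no test between groups was possible. Intervals below cover counting error only.

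Adipose stroma holds several kinds of fibroblast-like cell. Dpp4-positive interstitial progenitors lie in the fascia around the tissue, while preadipocytes that express Pparg, Fabp4 or Icam1 are closer to becoming fat cells. Cells with surface CD142, the product of F3, have been described as a regulatory stroma that restrains fat cell formation. Gdf10 is a secreted member of the transforming growth factor β (TGFβ) and bone morphogenetic protein (BMP) superfamily, Meox2 is a homeobox transcription factor of mesodermal tissues, and Tnfsf8 is CD30 ligand, a membrane protein of the tumour necrosis factor family known mainly from immune cells.

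The iWAT library held 29962 barcodes and 503611913 UMIs, and the iBAT library 28636 barcodes and 815235820 UMIs. The libraries had 8 barcodes in common. Members and marker-negative cells were sequenced to like depth, with medians of 18200 UMIs and 4727 genes against 18105 UMIs and 4708 genes per cell. The median mitochondrial share was 5.59% in members and 5.41% in marker-negative cells. A doublet caller marked 1.07% of the members (14 cells), 1.24% of the marker-negative cells and 2.17% of all filtered iWAT cells, and these cells were kept. Adipocyte markers were at or near 0, with a summed level of 0.883 UMIs per 1000000 UMIs of the group (CPM) in members and 0.812 CPM in marker-negative cells over 7 genes that included Adipoq, Plin1 and Lep.

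The 3 genes that chose the members lie on different chromosomes, Gdf10 at chr14:33645273-33659940, Meox2 at chr12:37158533-37229533 and Tnfsf8 at chr4:63749542-63779592 (GRCm39, GENCODE M39). The first 2 are on the plus strand and Tnfsf8 is on the minus strand. Promoter sequences are shown for Meox2 and Tnfsf8, which chose the cells, and for the neighbouring metalloproteinase genes Mmp13, Mmp3 and Mmp10, which differed between members and marker-negative cells in opposite directions. They are RefSeq windows of 250 bases before the transcription start (GRCm38.p6 table), matched here to 1 place each in GRCm39 and trimmed where they ran into the gene as GENCODE annotates it. They read 5′ to 3′ on the strand of the gene. Capitals mark matches, on either strand, to the TATA box TATAAA, the homeobox core TAATTA, the AP-1 motif TGANTCA and the GC box GGGCGG. The TEAD motif GGAATG was searched too and was not in these windows. None of the motifs overlapped another.
Meox2, chr12:37158289-37158532, plus strand: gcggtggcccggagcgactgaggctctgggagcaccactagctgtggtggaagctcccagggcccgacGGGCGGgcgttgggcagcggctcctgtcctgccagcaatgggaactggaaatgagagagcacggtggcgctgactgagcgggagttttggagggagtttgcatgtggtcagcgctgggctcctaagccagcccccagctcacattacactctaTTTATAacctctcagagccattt
Tnfsf8, chr4:63779593-63779771, minus strand: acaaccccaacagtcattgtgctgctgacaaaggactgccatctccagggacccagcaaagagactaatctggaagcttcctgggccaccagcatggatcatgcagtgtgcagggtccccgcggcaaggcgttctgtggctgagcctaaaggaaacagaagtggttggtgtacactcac
Mmp13, chr9:7272264-7272513, plus strand: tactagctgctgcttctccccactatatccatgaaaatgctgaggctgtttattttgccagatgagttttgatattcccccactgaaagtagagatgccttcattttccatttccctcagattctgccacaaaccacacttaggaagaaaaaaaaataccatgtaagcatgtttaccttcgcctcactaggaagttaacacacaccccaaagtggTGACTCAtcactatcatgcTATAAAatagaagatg
Mmp3, chr9:7445572-7445821, plus strand: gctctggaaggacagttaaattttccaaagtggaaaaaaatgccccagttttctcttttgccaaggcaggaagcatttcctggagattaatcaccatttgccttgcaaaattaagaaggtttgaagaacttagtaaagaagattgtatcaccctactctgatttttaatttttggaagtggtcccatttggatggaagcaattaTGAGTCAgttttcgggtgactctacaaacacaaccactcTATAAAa
Mmp10, chr9:7502093-7502342, plus strand: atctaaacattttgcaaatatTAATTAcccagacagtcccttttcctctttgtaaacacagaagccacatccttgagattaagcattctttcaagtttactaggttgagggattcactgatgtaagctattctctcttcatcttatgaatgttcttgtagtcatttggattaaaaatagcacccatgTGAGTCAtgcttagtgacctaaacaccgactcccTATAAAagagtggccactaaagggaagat

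Tnfsf8 was the most widely detected of the 3 genes and Meox2 the least. These values chose the cells and are a description. Tnfsf8 had at least 1 UMI in 986 members (75.1%), Gdf10 in 812 (61.8%) and Meox2 in 471 (35.9%). In epithelial cells of the same library (4523 cells with Epcam and without Pdgfra, median 11230 UMIs), which should lack these transcripts, the shares were 2.26% for Tnfsf8, 1.11% for Gdf10 and 0.553% for Meox2. With every cell thinned to 10000 UMIs and shallower cells left out (78 members, 1781 epithelial cells), the shares were 67.3% against 1.97% for Tnfsf8, 51.3% against 1.06% for Gdf10 and 23.7% against 0.401% for Meox2. All 3 transcripts were detected in 14.8% of the members (194 cells). Another 303 cells had Gdf10 and Tnfsf8, 152 had Meox2 and Tnfsf8, 113 had Gdf10 and Meox2, and 337, 202 and 12 cells had Tnfsf8, Gdf10 or Meox2 alone. Gdf10 and Meox2, the genes of the label of these cells, were thus each detected in a part of the members. Tnfsf8 was detected in more of them than either. The shares fell with thinning, so a member with 0 UMIs of a gene may still express it.

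The rule divides a continuous range of counts. The median member had 6 UMIs of the 3 genes and the highest had 52. Just inside the threshold lay 297 cells with 3 UMIs, and just outside it 479 cells with 2 UMIs, among mesenchymal cells with fewer than 3 Dpp4 UMIs. The Dpp4 limit removed 14 cells. Of 646 mesenchymal cells with 3 or more Dpp4 UMIs, 2.17% (1.19 to 3.61) reached 3 UMIs of the 3 genes, against 9.02% (8.56 to 9.50) of the cells below the Dpp4 limit.

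Each of the 3 genes was higher in cells chosen by the other 2, so that the left-out gene did not choose the cells. The 3 genes were picked with earlier results of these data known, so this is a description and no independent check. In 859 cells chosen by Meox2 and Tnfsf8, Gdf10 was at 113 CPM, against 8.34 CPM in cells with 0 UMIs of both (log2 ratio 3.76, 95% counting interval 3.67 to 3.86). In 1197 cells chosen by Gdf10 and Tnfsf8, Meox2 was at 23.0 CPM against 1.49 CPM (log2 ratio 3.94, 3.74 to 4.14). In 643 cells chosen by Gdf10 and Meox2, Tnfsf8 was at 149 CPM against 12.8 CPM (log2 ratio 3.54, 3.45 to 3.62). The left-out transcript was detected in a minority of the cells so chosen, Gdf10 in 41.7%, Meox2 in 29.7% and Tnfsf8 in 49.1% of them.

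Members also lay together when the mesenchymal cells were clustered without Gdf10, Meox2, Tnfsf8 and Dpp4. Of 10 Leiden clusters, cluster 4 (2346 cells) held 1029 members, which were 78.4% of all members and 43.9% (41.8 to 45.9) of that cluster. Members were 2.21% of the cells in the other 9 clusters. The next highest share was in cluster 9, which was led by interferon-induced genes such as Mx1 and Cxcl10 and held 12 members among 102 cells (11.8%, 6.23 to 19.6). The share of cells placed in cluster 4 went up with each step in the number of marker UMIs, from 6.30% of cells with 0 UMIs to 28.3% with 1, 49.9% with 2, 62.0% with 3 and 93.7% with 10 or more. Members with both Gdf10 and Tnfsf8 detected were in cluster 4 in 91.3% of cases (88.5 to 93.7). The share was 75.7% (71.6 to 79.4) with Tnfsf8 and no detected Gdf10, and 62.5% (56.9 to 67.9) with Gdf10 and no detected Tnfsf8. These 3 sets were not matched for the number of marker UMIs, with which the share itself went up. Cluster 4 also held 737 marker-negative cells, 31.4% of the cluster. At a finer resolution of 1 the members were spread over 3 main clusters, of which the fullest held 32.1% of them. The rule was chosen with earlier results of these data known. Abi3bp, Esm1 and Mgp, also given as markers of these cells, were not left out and were among the leading genes of cluster 4. The shares are therefore a description and no independent check that the members form a group.

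**Figure D1:**
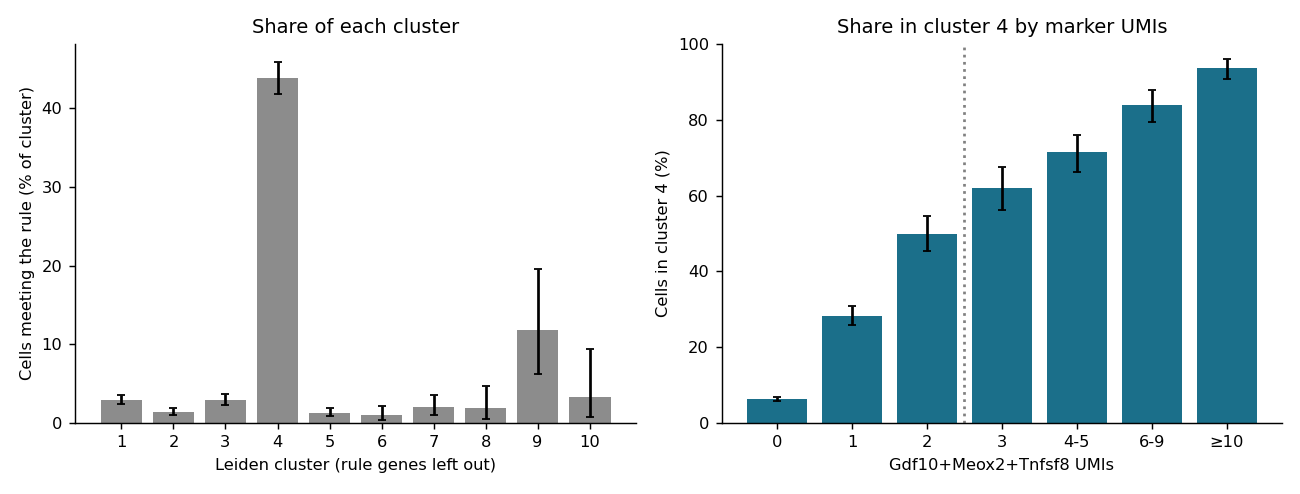
The left panel gives the share of cells that met the rule in each of 10 Leiden clusters of iWAT mesenchymal cells, made without the rule genes, and the right panel the share of cells in cluster 4 by the number of Gdf10, Meox2 and Tnfsf8 UMIs, with exact binomial 95% intervals and a dotted line at the threshold. Cluster 4 stands at 43.9%, and the share in cluster 4 goes from 6.30% at 0 UMIs to 93.7% at 10 or more.

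Members differed from marker-negative cells by 2-fold or more in 129 of 6566 genes (1.96%) with at least 20 CPM in either group, rule genes left out. Of these, 90 were higher in members (1.37% of the genes) and 39 were lower (0.594%). The median log2 ratio over all 6566 genes was -0.04. The counting interval lay wholly beyond 2-fold for 78 of the higher and 26 of the lower genes. The clusters and this comparison read the same cells, so the genes below describe the members and are no separate evidence that the cells form a class.

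The 3 other genes given as markers of these cells were Abi3bp, Esm1 and Mgp. They were among the 5 genes with the highest ratios of those with at least 20 CPM in either group. They had been picked from earlier results of these data, so their rank is no independent check of the label. Abi3bp, which encodes a secreted matrix protein that binds ABI3, lies at chr16:56298185-56510576 on the plus strand. It was at 39.3 CPM in members (36.8 to 41.8) and 3.62 CPM in marker-negative cells, a log2 ratio of 3.44 (3.30 to 3.57). Esm1 at chr13:113346021-113354632 on the plus strand encodes endocan, a secreted proteoglycan known from endothelial cells. It was at 65.8 CPM (62.6 to 69.0) against 8.82 CPM, a log2 ratio of 2.90 (2.80 to 2.99). This ratio was 0.63 within cluster 4, under 2-fold, and 1.65 outside it. Mgp at chr6:136849433-136852821 on the minus strand encodes matrix Gla protein, an inhibitor of calcification that also binds BMPs. It was at 119 CPM (114 to 123) against 18.1 CPM, a log2 ratio of 2.71 (2.64 to 2.78), which was 1.08 within cluster 4 and 1.48 outside it. With cells thinned to 10000 UMIs, Mgp was detected in 33.2% of members, 8.19% of marker-negative cells and 3.32% of epithelial cells, Esm1 in 24.6%, 5.19% and 1.93%, and Abi3bp in 17.4%, 2.73% and 1.31%. Without thinning, the shares for Mgp were 42.3%, 11.6% and 3.98%. Each marker was thus seen in a minority of the members.

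The metalloproteinase Mmp3, also called stromelysin, was the most abundantly counted of the higher genes. Its 55505 UMIs gave 2229 CPM in members against 327 CPM in marker-negative cells, a log2 ratio of 2.77 (2.75 to 2.78), and 92.9% of members had at least 1 UMI against 54.6% of marker-negative cells. In epithelial cells Mmp3 was at 86.9 CPM. Among the other genes with the highest ratios, several encode secreted or matrix proteins. Prelp, a leucine-rich proteoglycan that anchors basement membranes, was at 33.1 CPM against 5.58 CPM. The chemokine Cxcl5 was at 26.4 CPM against 4.87 CPM. Igfbp5 and Igfbp4, which bind insulin-like growth factors (IGFs), were at 426 CPM against 87.8 CPM and at 249.6 CPM against 53.0 CPM. In epithelial cells Igfbp5 was at 136 CPM and Igfbp4 at 539 CPM, above its level in members.

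Other leading genes act inside the cell or at its surface. Aldh1a2, which makes retinoic acid from retinal, was at 54.0 CPM in members against 9.32 CPM in marker-negative cells. Adcyap1r1, the receptor of the neuropeptide PACAP, was at 115 CPM against 20.5 CPM. Car2, a cytosolic carbonic anhydrase, was at 66.3 CPM against 11.9 CPM. Rasl11a, a small GTPase, was at 116 CPM against 22.7 CPM. Epha3, an ephrin receptor, was at 70.5 CPM against 14.3 CPM, and Gabra3, a subunit of the GABA-A receptor, was at 62.7 CPM against 12.6 CPM. Olfr1033 was counted at 90.3 CPM against 10.8 CPM. It belongs to the large olfactory receptor family, how reads shared between family members were counted is not given in the sources used here, and its symbol has no match in GENCODE M39.

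The 10 genes with the lowest ratios, among those with at least 20 CPM in either group, had varied roles. Ngfr, the low-affinity neurotrophin receptor of the tumour necrosis factor receptor family, was at 4.58 CPM in members against 21.2 CPM in marker-negative cells, a log2 ratio of -2.21 (-2.49 to -1.94). Its level was not the same across members, at 13.1 CPM in those with Gdf10 and no Tnfsf8, 1.75 CPM in those with Tnfsf8 and no Gdf10 and 2.06 CPM in those with both. The log2 ratio of Ngfr was -0.64 outside cluster 4 and -0.04 within it, so that it did not reach 2-fold in either. Acta1, skeletal muscle actin, was at 47.1 CPM against 150.3 CPM, a log2 ratio of -1.67 (-1.76 to -1.59). Serpinb2, which inhibits urokinase, was at 11.7 CPM against 47.5 CPM, and Dkk2, an antagonist of Wnt signalling, at 8.71 CPM against 25.2 CPM. Irx1, a homeobox factor, was at 22.8 CPM against 68.1 CPM. The small GTPase Arl4c was at 57.1 CPM against 166 CPM. Gzme, a granzyme from a gene cluster of close relatives, was at 18.7 CPM against 80.3 CPM, and its counts may share reads with those relatives. Sprr1a, a cornified envelope protein, was at 6.42 CPM against 28.3 CPM, Rec114, a meiotic recombination protein, at 13.7 CPM against 42.9 CPM, and Erfe, which encodes the hormone erythroferrone, had a log2 ratio of -1.56 (-1.75 to -1.38).

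**Figure D2:**
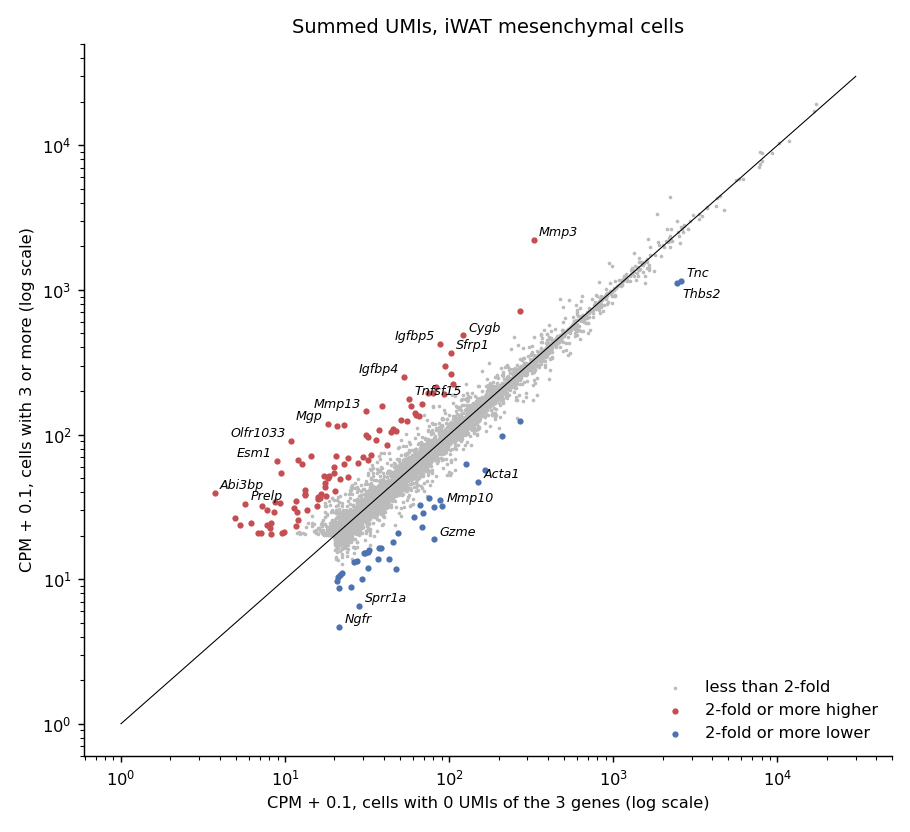
Each point is 1 of 6566 genes, with its level in marker-negative cells on the x axis and in Gdf10/Meox2/Tnfsf8 cells on the y axis, both as CPM + 0.1 on log scales, and the line marks equal levels. The 90 higher genes (red) run from low-level Abi3bp to Mmp3 at 2229 CPM in members, and the 39 lower genes (blue) include Tnc at 1159 CPM and Thbs2 at 1109 CPM in members.

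The levels differed in steps with the number of marker UMIs. Across cells with 0, 1, 2, 3, 4 to 5, 6 to 9 and 10 or more UMIs of Gdf10, Meox2 and Tnfsf8, Mmp3 was at 321, 744, 1392, 1715, 1749, 2388 and 2922 CPM. Tnc, an extracellular glycoprotein of remodelling tissue, went the other way, at 2605, 1945, 1526, 1430.1, 1334, 1095 and 848 CPM. Cells with 2 UMIs, which are outside the rule, were closer in both genes to cells with 3 UMIs than to cells with 0. Abi3bp had a further step at the top, from 29.4 CPM (6 to 9 UMIs) to 65.5 CPM (10 or more), and so had Igfbp5, from 318 CPM to 694 CPM. The order was not strict in every gene. From 3 UMIs to 4 to 5 UMIs, Igfbp5 went from 379.9 CPM to 264 CPM, Tnfsf15 from 171 CPM to 145 CPM, Mgp from 85.8 CPM to 77.4 CPM and Prelp from 21.4 CPM to 17.8 CPM. Esm1 was at 82.6 CPM with 6 to 9 UMIs and 76.2 CPM with 10 or more. Mki67, a marker of dividing cells, was between 90.7 CPM and 115 CPM in all 7 bins. Median depth was between 17710 and 19269.5 UMIs in these bins.

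**Figure D3:**
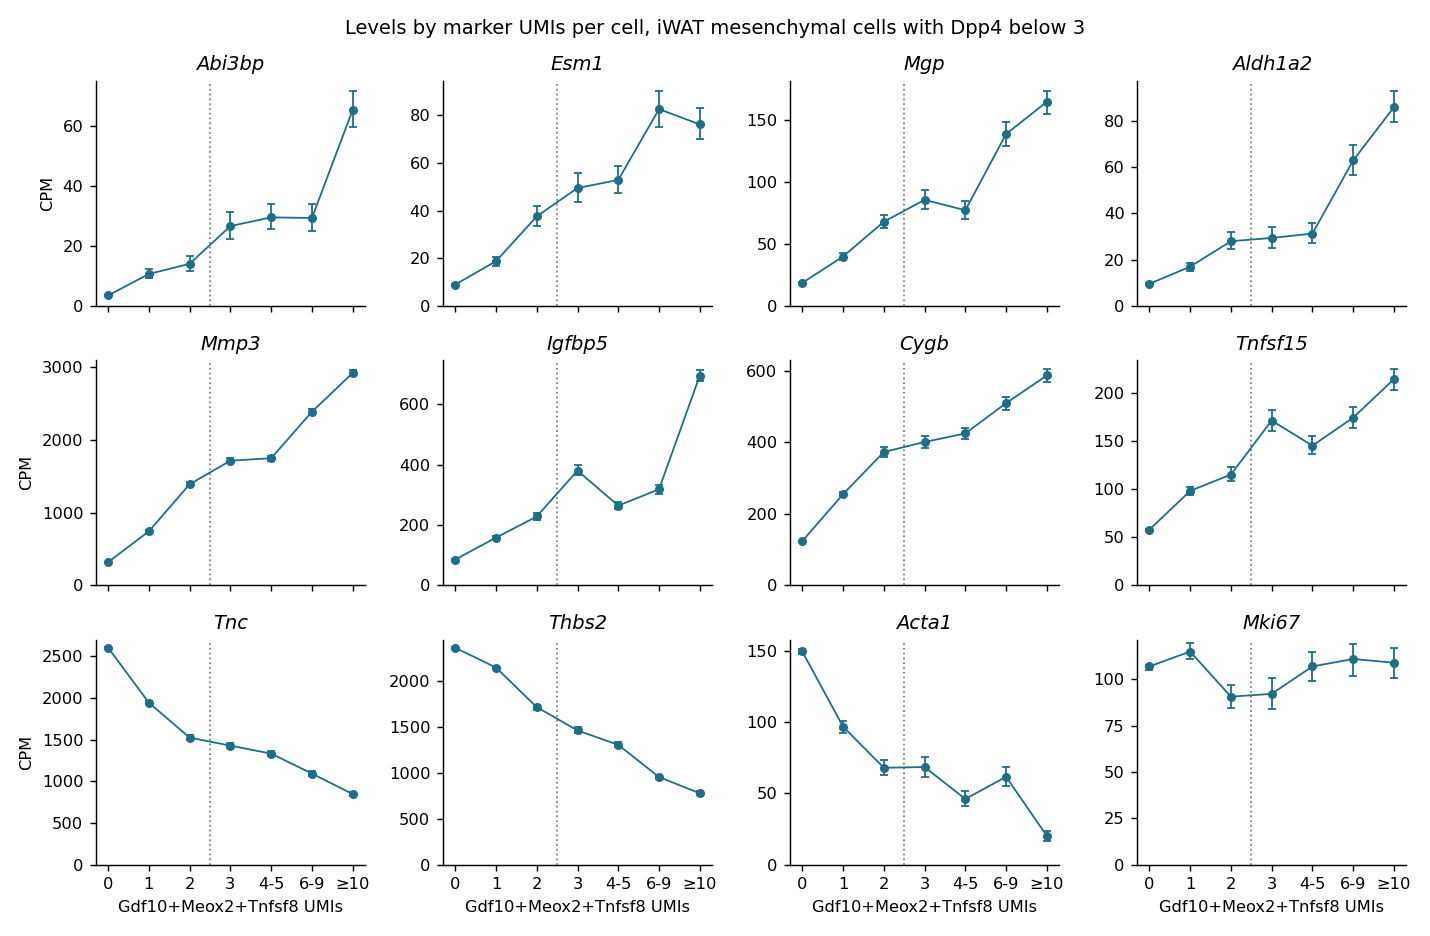
Each panel gives the level of 1 gene, in CPM with exact Poisson 95% intervals, in iWAT mesenchymal cells with fewer than 3 Dpp4 UMIs, by the number of Gdf10, Meox2 and Tnfsf8 UMIs per cell, with a dotted line at the threshold of 3. Mmp3 goes from 321 CPM to 2922 CPM and Tnc from 2605 CPM to 848 CPM, while Mki67 stays between 90.7 CPM and 115 CPM.

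Gene lists are given by the number of members with at least 5 CPM in either group that differed by 2-fold or more. At this level 1.72% of 10362 genes were higher, 0.946% were lower, and the median log2 ratio was -0.04. The lists were drawn up with earlier results of these data known. Of the genes named from them, F3, Abcg1, Col1a1, Col3a1, Timp3, Inhba, Grem1, Igf1r, Aldh1a3, Rarb, Fgfr1, Meox1, Hoxc10, Ccl2, Fabp4, Acta2, Emcn, Egfl7 and Ucp1 were chosen after their values were seen.

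Of the CD142 regulatory stroma list, 7 of 8 genes reached 5 CPM, 4 of them were 2-fold or more higher and 0 lower, with a median log2 ratio of 1.12. Besides Mgp, these were Cygb, a globin of fibroblasts (486 CPM against 121 CPM), Fmo2, a flavin monooxygenase (72.3 CPM against 33.3 CPM), and Clec11a, a secreted growth factor of the C-type lectin family (23.7 CPM against 5.18 CPM). Mgp, part of this count and median, had been picked as a marker from earlier results of these data. F3 itself, the gene of CD142, was at 759.6 CPM against 490.3 CPM, a log2 ratio of 0.63 (0.61 to 0.65), and was at 754 CPM in mesenchymal cells with 3 or more Dpp4 UMIs. Fmo2 was at 68.6 CPM in those cells, near its level in members. Abcg1, a lipid exporter used as a marker of such cells, was at 14.2 CPM against 10.5 CPM and Inmt was below 5 CPM.

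Of 41 matrix genes, 6 were 2-fold or more higher and 2 lower, with a median log2 ratio of 0.28. The higher count and the median include Abi3bp, Mgp and Esm1, which had been picked as markers from earlier results of these data. Besides Abi3bp, Mgp, Esm1 and Mmp3, the higher genes were Col14a1, a collagen of fibril surfaces (18.2 CPM against 4.69 CPM), and Lum, the proteoglycan lumican (25.5 CPM against 11.9 CPM). Col3a1 was at 4396 CPM against 2223 CPM, just under 2-fold, while Col1a1 was at 19188 CPM against 17247 CPM. Thbs2, a thrombospondin, was at 1109 CPM against 2445 CPM (log2 ratio -1.14, -1.16 to -1.12), which did not reach 2-fold with at least 2 UMIs in the rule (-0.95) or with Tnfsf8 left out of it (-0.69), and Tnc at 1159 CPM against 2572 CPM (log2 ratio -1.15, -1.17 to -1.13). Timp3, an inhibitor of metalloproteinases, was at 3347 CPM against 1844 CPM (log2 ratio 0.86).

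Genes near each other at 2 places in the genome went in opposite directions, an observation made after the values were seen. On chromosome 9, Mmp13, Mmp3 and Mmp10 lie within a cluster of metalloproteinase genes. Mmp13, the interstitial collagenase of mice, was at 145 CPM in members against 31.1 CPM in marker-negative cells (log2 ratio 2.22, 2.16 to 2.27), whereas Mmp10, which starts 46.4 kb beyond the end of Mmp3, was at 32.2 CPM against 89.7 CPM (log2 ratio -1.48, -1.58 to -1.38). Mmp12, which lies between Mmp13 and Mmp3, was at 0.642 CPM against 1.47 CPM (log2 ratio -1.20) and so was barely detected in either group. The 3 promoter windows of this locus printed above each hold 1 TATAAA and 1 TGANTCA, and the Mmp10 window alone holds TAATTA. On chromosome 4, Tnfsf15, a further ligand of the tumour necrosis factor family, ends 86.1 kb from Tnfsf8 and was at 177 CPM against 56.7 CPM (log2 ratio 1.64, 1.59 to 1.69). Tnc, which was lower, lies 98.4 kb on the other side of Tnfsf8.

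Over 27025 genes with a promoter window in the table, TATAAA was in 12.9%, TAATTA in 4.98%, TGANTCA in 6.87%, GGGCGG in 32.7% and GGAATG in 12.6%. Among the 59 higher genes with a window the shares were 16.9%, 3.39%, 8.47%, 42.4% and 13.6%. Among the 26 lower genes with a window TATAAA was in 10 (38.5%), TAATTA in 2 (7.69%), TGANTCA in 4 (15.4%), GGGCGG in 13 and GGAATG in 4 (15.4%). A match is a run of letters and not a shown binding site.

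Gdf10 belongs to the TGFβ and BMP pathways, whose other genes were examined by role. Of 8 other ligands with at least 5 CPM, 0 were higher and 1 lower by 2-fold. That gene was Bmp6, at 3.41 CPM against 8.23 CPM. Inhba, which encodes activin A, was at 1411 CPM against 1659 CPM. None of 11 receptors reached 2-fold, and the highest ratio was that of Acvr2a, an activin receptor, at 80.5 CPM against 48.8 CPM. Among 10 antagonists and carriers, Chrdl1, a secreted BMP antagonist, was at 15.7 CPM against 1.24 CPM (log2 ratio 3.67, 3.45 to 3.90), and Ltbp1, which stores latent TGFβ in the matrix, at 15.4 CPM against 31.9 CPM. With cells thinned to 10000 UMIs, Chrdl1 was detected in 12.6% of members, 1.02% of marker-negative cells and 0.328% of epithelial cells, and without thinning in 18.8%, 1.69% and 0.531%. Grem1, another BMP antagonist, was at 181 CPM against 295 CPM. Among 9 target genes, Id4, an inhibitor of basic helix-loop-helix factors (17.1 CPM against 4.92 CPM), and Smad6, an inhibitory Smad (32.2 CPM against 15.5 CPM), were 2-fold or more higher and 0 were lower.

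Of the tumour necrosis factor ligands outside the rule, 4 reached 5 CPM and 2 were higher by 2-fold. These were Tnfsf15 and Tnfsf13b, which encodes the B cell factor BAFF (10.9 CPM against 5.24 CPM). Tnfrsf8, which encodes CD30, the receptor of the Tnfsf8 product, was below 5 CPM in both groups. Of 9 receptors of the family with at least 5 CPM, Ngfr was the only one past 2-fold, and it was lower.

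In the IGF list, 3 of 9 genes were higher by 2-fold and 0 lower, with a median log2 ratio of 0.47. Besides Igfbp4 and Igfbp5 this was Igf1 itself, at 33.4 CPM against 9.23 CPM (log2 ratio 1.86, 1.74 to 1.97). The receptor Igf1r was at 61.6 CPM against 75.2 CPM. In the Wnt list, 2 of 11 genes were higher and 1 lower. Sfrp1, a secreted Wnt antagonist, was at 366 CPM against 102 CPM (log2 ratio 1.85, 1.81 to 1.88), and the ligand Wnt2 at 18.0 CPM against 6.37 CPM, while Dkk2 was lower. In the retinoid list, Aldh1a2 was the 1 of 12 genes past 2-fold. Its relative Aldh1a3 was at 16.3 CPM against 22.6 CPM, and the retinoic acid receptor gene Rarb at 37.7 CPM against 41.2 CPM.

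Fgf7, a growth factor for epithelial cells, was at 195 CPM in members against 74.6 CPM in marker-negative cells (log2 ratio 1.39, 1.34 to 1.43), and Fgf1 at 7.47 CPM against 1.62 CPM. They were the 2 of 6 FGF ligands past 2-fold, and 0 were lower. None of 10 FGF receptors and co-receptors and none of 16 early targets of FGF and ERK signalling differed by 2-fold, with median log2 ratios of 0.10 and -0.01. Fgfr1 was at 264 CPM against 298 CPM, and Sdc4, a heparan sulphate co-receptor, had the highest ratio, at 188 CPM against 104 CPM. Of the target genes, Spry4, a feedback inhibitor, was at 26.9 CPM against 17.3 CPM and Dusp5, an ERK phosphatase, at 33.0 CPM against 60.4 CPM. Ucp1, the uncoupling protein of thermogenic fat, had at least 1 UMI in 0.0762% of members and 0.124% of marker-negative cells. The share in epithelial cells was 0.287%. After thinning the 3 shares were 0.0810%, 0.0830% and 0.109%, so a difference in Ucp1 was not detectable at this depth.

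Among 28 homeobox and depot transcription factors outside the rule, 3 were higher and 3 lower by 2-fold, with a median log2 ratio of 0.10. The higher genes were Hoxd8 (15.2 CPM against 3.75 CPM), Osr1 (29.2 CPM against 11.8 CPM) and Foxp2 (14.9 CPM against 6.39 CPM). The lower genes included Osr2 (3.13 CPM against 12.4 CPM) and Tbx5 (2.57 CPM against 8.41 CPM). Osr1 and Osr2, which are close relatives, thus went in opposite directions. Meox1, the relative of Meox2, was at 5.38 CPM against 9.44 CPM. Hoxc10, a gene of the posterior Hox clusters that marks inguinal fat, was at 179 CPM against 147 CPM.

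Of 12 chemokines and cytokines, 3 were higher and 0 lower by 2-fold, with a median log2 ratio of 0.68. Besides Cxcl5 these were Cxcl12, a chemokine that retains blood progenitors (195 CPM against 79.1 CPM), and Il11 (104 CPM against 43.9 CPM). Ccl2, which draws monocytes, was at 295 CPM against 385 CPM. None of 11 interferon-induced genes differed by 2-fold. All 11 had ratios above 0, with a median log2 ratio of 0.33 and Ifit3 highest at 0.71. Over all 10362 genes at this level the median was -0.04, and the share of them above 0 is not given here. In the hormone receptor list, Pgr, the progesterone receptor gene (18.0 CPM against 45.2 CPM), and Esr1, an oestrogen receptor gene (5.98 CPM against 12.5 CPM), were lower by 2-fold, and 0 of 6 were higher. None of 12 cell cycle genes differed by 2-fold, and their median log2 ratio was -0.03. None of 5 cell cycle inhibitors did, with Cdkn2a at 20.6 CPM against 31.1 CPM. Of 15 angiogenic factors, Esm1 and Ntn1 (31.9 CPM against 7.15 CPM) were higher and Pgf (5.78 CPM against 13.2 CPM) and Sema3a (10.5 CPM against 21.5 CPM) were lower by 2-fold. Esm1 had been picked as a marker from earlier results of these data. Ntn1 encodes a guidance cue for axons and vessels, and was at 153 CPM in epithelial cells.

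Of 9 genes of committed preadipocytes with at least 5 CPM, Icam1 (50.5 CPM against 24.1 CPM) and Sparcl1 (51.8 CPM against 17.2 CPM) were higher by 2-fold and 0 were lower, with 7 ratios above 0 and a median log2 ratio of 0.70. The lowest ratio was that of Pparg, the main regulator of fat cell formation, at 6.46 CPM against 11.1 CPM, and Fabp4, a fatty acid binding protein, at 50.4 CPM against 41.8 CPM. Of 5 interstitial progenitor genes outside the rule, Wnt2 was higher by 2-fold and 0 were lower, while Pi16 was below 5 CPM. In the thermogenic list, 2 of 8 genes reached 5 CPM, and neither differed by 2-fold.

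**Figure D4:**
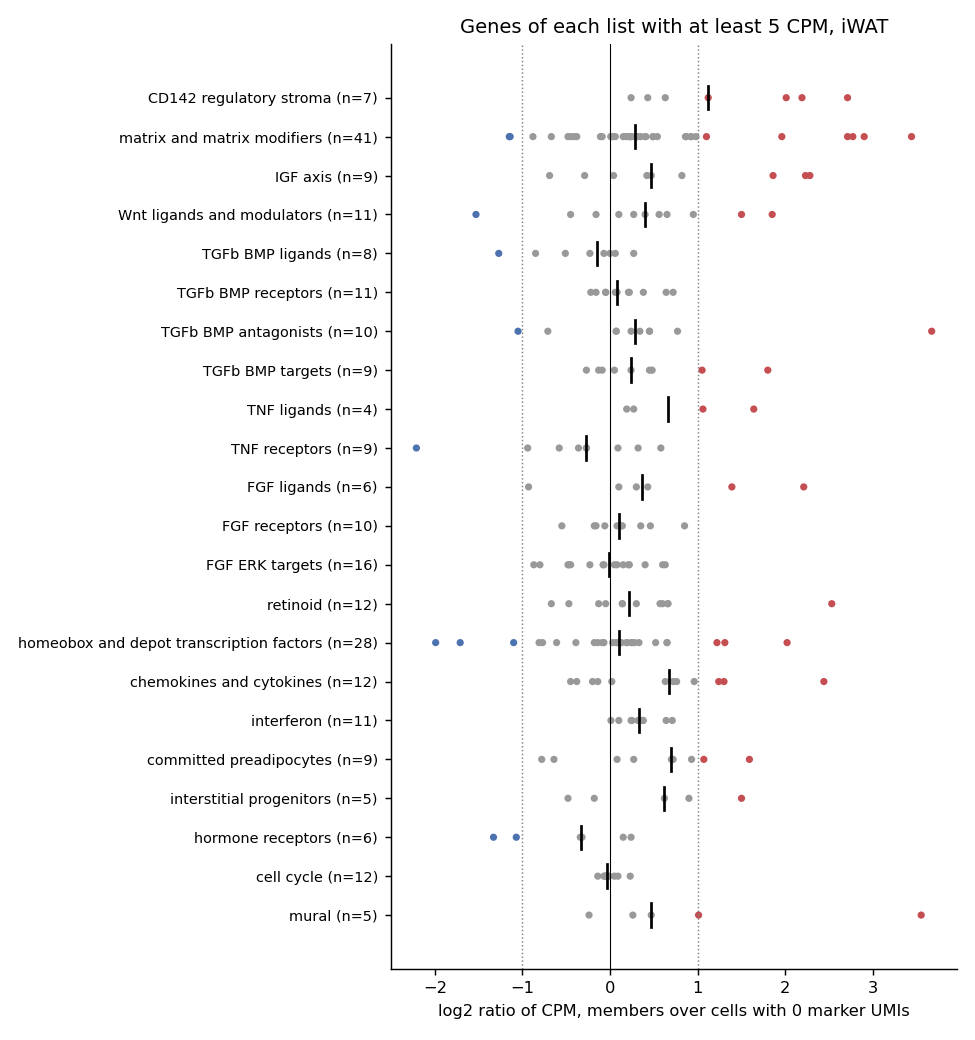
Each point is 1 gene of a list with at least 5 CPM in either group, placed by its log2 ratio of CPM, members over marker-negative cells, with dotted lines at 2-fold, red and blue for genes beyond them and a black bar at the median of the list. Of the lists plotted, the CD142 regulatory stroma list has the highest median at 1.12, and the cell cycle list lies at -0.03 with 0 genes past 2-fold. The CD142 list includes Mgp, a marker picked from earlier results of these data.

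Markers of other cell types were examined beside these results. Of 8 mural genes, 5 reached 5 CPM, and Abcc9, a potassium channel subunit of pericytes (9.88 CPM against 0.843 CPM), and Notch3 (12.6 CPM against 6.22 CPM) were higher by 2-fold, while Rgs5, Kcnj8 and Higd1b were below 5 CPM. The summed mural level was 101 CPM in members and 72.8 CPM in marker-negative cells. With thinning, Abcc9 was detected in 7.77% of members, 0.775% of marker-negative cells and 0.474% of epithelial cells, and without it in 12.7%, 1.39% and 0.464%. Of 9 endothelial genes outside the rule, Cdh5 was at 7.35 CPM against 1.64 CPM and Kdr at 2.09 CPM against 5.32 CPM, and the other 7 were below 5 CPM. Among those 7, Emcn was at 3.21 CPM against 0.384 CPM and Egfl7 at 2.65 CPM against 3.98 CPM. In the contractile list, Actg2 was higher (63.4 CPM against 27.6 CPM), Des was lower (2.93 CPM against 7.14 CPM), and Acta2 was at 2513 CPM against 2667 CPM. Summed immune genes were at 7.55 CPM against 8.16 CPM, and summed epithelial genes at 61.6 CPM against 60.1 CPM. In the Schwann list, S100b was at 7.35 CPM against 2.66 CPM and was the only gene at 5 CPM or more. The muscle list had Des as its only gene at 5 CPM or more. Of 8 general mesenchymal genes, Lum was higher by 2-fold and 0 were lower. The part of other cell types in these ratios was not tested.

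The members were not uniform. Split by the rule genes detected, 315 members had Gdf10 without Tnfsf8, 489 had Tnfsf8 without Gdf10, and 497 had both. Their median depths were 17542, 19210 and 17802 UMIs. The first 2 sets are called Gdf10+ Tnfsf8- and Tnfsf8+ Gdf10- cells, and 35.9% and 31.1% of them also had Meox2. Between the first 2 sets, 46 of 6596 genes (0.697%) were 2-fold or more higher with Gdf10 and 17 (0.258%) were higher with Tnfsf8. In Gdf10+ Tnfsf8- cells Abi3bp was at 55.2 CPM, against 9.90 CPM in Tnfsf8+ Gdf10- cells and 60.8 CPM in cells with both. Igfbp5 was at 642, 182 and 547 CPM in the same order, Sfrp1 at 501, 183 and 476 CPM, and Cxcl12 at 275, 102 and 244 CPM. Cells with both genes were thus near the Gdf10+ Tnfsf8- level in these 4 genes. Tnfsf15 was at 98.3, 207 and 194 CPM, so that there the cells with both genes were near the Tnfsf8+ Gdf10- level. The sets were not matched for the number of marker UMIs or for their share in cluster 4. Their names refer to detection, and a cell with 0 UMIs of a gene may still express it.

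Crabp1, a retinoic acid binding protein, was at 89.2 CPM in Gdf10+ Tnfsf8- cells, 18.7 CPM in Tnfsf8+ Gdf10- cells, 36.5 CPM in cells with both and 67.8 CPM in marker-negative cells. Thbs2 was at 2023, 724, 951 and 2445 CPM in the same order, and Pgr at 31.7, 8.66, 19.5 and 45.2 CPM. In these 3 genes, Gdf10+ Tnfsf8- cells lay nearest to the marker-negative level. Timp3 was at 2011, 4488, 3018 and 1844 CPM, and Cdkn2a, an inhibitor of cell division, at 10.8, 32.8, 14.1 and 31.1 CPM. Esm1 (70.7 CPM and 60.4 CPM), Cygb (419 CPM and 460.3 CPM), Mmp13 (139 CPM and 142 CPM) and Clec11a (18.5 CPM and 19.0 CPM) were close between Gdf10+ Tnfsf8- and Tnfsf8+ Gdf10- cells. Crabp1, Timp3 and Cdkn2a were picked after their values were seen.

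Levels differed both by cluster and by marker transcripts. Mmp3 was at 2618 CPM in the 1029 members of cluster 4, 968 CPM in its 737 marker-negative cells, 944 CPM in the 284 members elsewhere and 289 CPM in marker-negative cells elsewhere. Esm1 was at 79.7, 51.6, 19.8 and 6.31 CPM in the same order, and Abi3bp at 48.5, 18.3, 8.80 and 2.76 CPM. Marker-negative cells of cluster 4 were shallower, with a median of 16018 UMIs against 17860 for its members. Within cluster 4, members were 2-fold or more higher than marker-negative cells in 20 of 6459 genes and lower in 5. Outside it, they were higher in 32 of 6596 genes and lower in 5. Ratios were lower in both of these settings than over all cells for Abi3bp (1.41 within and 1.67 outside the cluster), Mmp3 (1.43 and 1.71), Mgp (1.08 and 1.48), Prelp (1.56 and 1.02), Igfbp4 (1.30 and 1.02) and Clec11a (1.29 and 1.15). Several named genes did not reach 2-fold within cluster 4, with log2 ratios of 0.36 for Sfrp1, 0.42 for Cygb, 0.42 for Tnfsf15, 0.54 for Fgf7, 0.63 for Esm1, -0.37 for Thbs2, -0.46 for Mmp10, -0.52 for Tnc, -0.84 for Acta1 and -0.04 for Ngfr. Outside it this was so for Igfbp5 (0.55), Fgf7 (0.72), Aldh1a2 (0.92), Thbs2 (-0.28), Tnc (-0.56), Ngfr (-0.64) and Acta1 (-0.83). The cluster was built from these cells and genes, so these values are a description.

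The members were also set against 2 other stromal states of the same library. Against the 646 mesenchymal cells with 3 or more Dpp4 UMIs, 90 of 6629 genes were 2-fold or more higher in members (1.36%) and 60 lower (0.905%). Adcyap1r1 was at 115 CPM in members against 7.48 CPM in Dpp4 cells, Mgp at 119 CPM against 8.56 CPM and Col15a1, a basement membrane collagen, at 471 CPM against 95.7 CPM. In the other direction Osr2 was at 3.13 CPM against 24.7 CPM, Cma2, a chymase, at 5.26 CPM against 36.2 CPM, and Thbs2 at 1109 CPM against 3913 CPM. Prelp, at 33.1 CPM against 17.1 CPM, did not reach 2-fold here.

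The second state was that of mesenchymal cells with 3 or more UMIs each of Fabp4 and Cxcl14 and fewer than 3 of Dpp4, 1170 cells in all. Of these 1170 cells 117 were also members, which is 8.91% of the members, and 7.15% of the marker-negative cells met the same definition. With the shared cells left out of both sides, 76 of 6496 genes were 2-fold or more higher in members (1.17%) and 40 lower (0.616%). Ptprb, a receptor phosphatase of vessels, was at 20.3 CPM in members against 1.41 CPM, Esm1 at 68.5 CPM against 5.02 CPM and Igfbp5 at 439.7 CPM against 59.9 CPM. Pparg was at 5.01 CPM against 27.7 CPM, Meox1 at 5.14 CPM against 23.3 CPM, and Gjb2, a gap junction protein, at 7.91 CPM against 33.7 CPM. Sfrp1 (363 CPM against 229 CPM) and Tnc (1144 CPM against 1904 CPM) did not reach 2-fold.

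The same rule found 5849 cells in the iBAT library, 24.1% (23.5 to 24.6) of its 24305 mesenchymal cells. That library was deeper, with a median of 28338 UMIs in the cells that met the rule, and a fixed number of UMIs is reached more often in deeper cells. With all cells thinned to 10000 UMIs before the rule and shallower cells left out, 6.60% (6.14 to 7.08) of the iWAT and 10.8% (10.4 to 11.2) of the iBAT mesenchymal cells met it. Thinning left out 5588 filtered iWAT cells and 0 iBAT cells. The detected makeup differed, with Meox2 in 74.6%, Tnfsf8 in 66.9% and Gdf10 in 52.1% of the iBAT cells. These shares are without thinning, and the part of depth in them was not tested. Over all mesenchymal cells iBAT had 24.4 CPM of Meox2 where iWAT had 3.95 CPM. The levels of iBAT and iWAT were 21.1 CPM and 18.4 CPM for Gdf10, and 35.7 CPM and 24.2 CPM for Tnfsf8. With 1 library per depot, depot and library cannot be told apart.

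In iBAT, 94 of 6696 genes were 2-fold or more higher (1.40%) and 36 lower (0.538%) in cells that met the rule than in its 11696 marker-negative cells, which is 1.94% in either direction. Of the 90 higher genes of iWAT, 37 were also among those of iBAT, which is 41.1% of the iWAT list and 39.4% of the iBAT list. Of the 39 lower genes, 9 were shared, 23.1% of the iWAT list and 9 of the 36 genes of the iBAT list. In all, 84 of the 90 and 36 of the 39 had the same direction in iBAT, while over all 6566 genes 74.8% did. No gene was past 2-fold in opposite directions.

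Shared higher genes included Mmp3 (774 CPM against 127 CPM in iBAT), Prelp (227 CPM against 49.8 CPM), Igfbp4 (1654 CPM against 377 CPM), Abi3bp (71.2 CPM against 12.3 CPM), Cygb (581 CPM against 227 CPM) and Sfrp1 (1211 CPM against 449 CPM). Tnfsf15 was at 58.6 CPM against 7.57 CPM, a log2 ratio of 2.95 there against 1.64 in iWAT. The 9 shared lower genes were Acta1, Arl4c, Ccnd1, H19, Htr2a, Ltbp1, Mcpt8, Serpinb2 and Tnc. Chrdl1 was at 7.83 CPM against 1.29 CPM in iBAT, and Abcc9 at 16.8 CPM against 3.60 CPM. Left-out rule genes were again higher, with log2 ratios of 2.53 for Gdf10, 1.68 for Meox2 and 2.95 for Tnfsf8.

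Some other genes named above did not reach 2-fold in iBAT, and some of them went the other way. Mgp was at 613 CPM against 582 CPM, a log2 ratio of 0.07 in iBAT where it was 2.71 in iWAT. Sparcl1 was at 10.4 CPM against 9.20 CPM, Irx1 at 13.6 CPM against 13.4 CPM, and Il11 at 64.3 CPM against 78.2 CPM. In iBAT the highest ratios outside the rule genes were those of Elobl (33.7 CPM against 1.96 CPM) and Bmp4, a BMP ligand (26.0 CPM against 2.56 CPM). Both were below 0.5 CPM in iWAT members, with log2 ratios of 3.60 and 2.68 there, the same direction as in iBAT. These iWAT ratios rest on few UMIs. Bmp4 had 12 UMIs against 17 (interval of the log2 ratio 1.48 to 3.83), and Elobl was at 0.321 CPM against 0.0265 CPM. Whether these differences between the libraries exceed the spread between cultures was not tested.

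**Figure D5:**
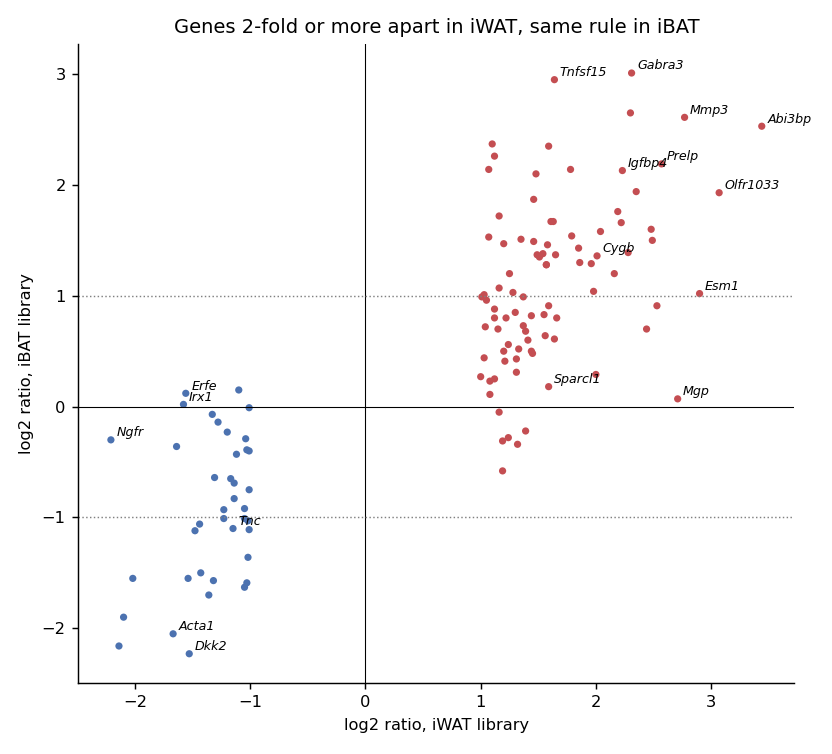
Each point is 1 of the 129 genes that differed by 2-fold or more in iWAT (red higher, blue lower in members), with its log2 ratio in iWAT on the x axis and under the same rule in iBAT on the y axis, and dotted lines at 2-fold in iBAT. Abi3bp, Mmp3 and Prelp are past 2-fold in both libraries, while Mgp is at 2.71 in iWAT and 0.07 in iBAT.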

How the data were processed

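Cultured stromal cells of 2 depots were profiled by scRNA-seq, 1 library per depot. The authors aligned the reads on a cloud genomics pipeline (version not given in the sources used here) and deposited raw UMI counts per gene and cell. The submitters' processing notes name the build mm39 and Seurat 5.0.0. Counts were summed over the cells of a group and divided by the summed UMIs to give CPM. Genes with at least 20 CPM in either group were called at 2-fold or more. Levels have exact Poisson, shares exact binomial and ratios conditional binomial 95% intervals, which cover counting error only. With 1 library per depot, no p-value was computed.

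Mesenchymal iWAT cells were clustered with scanpy 1.11.5 and leidenalg 0.10.2 (2000 variable genes, 30 components, 20 neighbours, resolution 0.5) without Gdf10, Meox2, Tnfsf8 and Dpp4. Doublets were called with Scrublet and kept. Named genes were the rule genes and label markers, the 15 highest and 10 lowest ratios, and the list members with the highest and lowest ratios or needed for a count. All other named genes were chosen after their values were seen. The members and lists were chosen with earlier results of these data known. The scripts were tested on simulated data. Gene positions are from GENCODE M39 (GRCm39). Values of some list genes are not reported here.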

Additional observations from a re-analysis of the deposited data

How the results depend on the processing

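The number of cells that met the rule was 1313, and followed the threshold and genes of the rule. It was 1792 with at least 2 UMIs of the 3 genes, 794 with at least 5, 859 without Gdf10, 1197 without Meox2, 643 without Tnfsf8 and 720 after thinning to 10000 UMIs. Against 90 higher and 39 lower of 6566 genes at 20 CPM, the counts were 178 and 98 of 10362 genes at 5 CPM. They were 30 and 7 of 1863 genes at 100 CPM. With no minimum, where genes of few UMIs are counted, they were 2292 and 6347 of 28642 genes. With at least 2 UMIs in the rule, 25 of 6549 genes were lower. In alternatives chosen after seeing the data, 32 of 6596 genes were higher and 5 lower among members outside the leading cluster. Within it, 20 of 6459 genes were higher and 5 lower. The share of members in the leading cluster was 78.4% and was 32.1% at resolution 1, where more clusters are made. The iBAT share of 24.1% was 10.8% after thinning. For 18 named genes under 15 alternatives, 93 of 270 ratios stayed within the counting interval of the reported ratio, 177 moved beyond it and 0 changed direction. The nearest to 0 was Ngfr, at -0.04. No paired analysis was possible because each depot is 1 library. Treatments, cultures and depots could not be separated from the library, and genes with few UMIs are limited by depth.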
